A study of Drosophila melanogaster with 2 samples.

Results

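The 70 nuclear genes for mitochondrial ribosomal proteins were compared between adult male Drosophila melanogaster that overexpressed the microRNA miR-305 and males of the driver line. They are the features of the deposited gene table whose symbol begins with mRpL or mRpS followed by a number and that hold a single symbol. This rule uses names only and found 70 of 15906 features, 45 named mRpL and 25 named mRpS. Below, large and small subunit follow this letter of the symbol, and the place of each protein in the ribosome was not checked. The description in the file calls all 70 a mitochondrial ribosomal protein. The miR-305 group was da-Gal4/UAS-miR305 males, in which the daughterless driver, a near-ubiquitous one, expressed a miR-305 transgene. The control group was da-Gal4/+ males, which carried the same driver without the transgene. All flies were 15 days old and RNA came from the whole body. Each group had 1 library, so no difference below has a replicate check and no p-value was computed. How many flies were pooled for a library is not stated in the labels, and a UAS-miR305 line without the driver is not part of the comparison.

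Mitochondrial ribosomes sit in the matrix and translate the few messages of mitochondrial DNA, which encode core subunits of the respiratory chain and ATP synthase. Their RNA comes from the mitochondrial genome, whereas all their proteins are encoded in the nucleus, made in the cytosol and imported. Part of these proteins descend from bacterial ribosomal proteins and keep the bacterial numbers, and the others were added in mitochondria. In Drosophila, loss of function in tko, the gene for the S12 protein, slows development and makes flies sensitive to mechanical shock.

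All 70 genes were expressed in both libraries, at levels from 12.5 to 149.97 FPKM in miR-305 males and from 12.1 to 214 FPKM in control males. FPKM counts the fragments of a gene per kilobase and scales them to the size of the library, so levels are per length and can be compared between genes. The median member had 31.5 FPKM in miR-305 males and 30.2 FPKM in control males. A band of 15 to 60 FPKM held 61 members in miR-305 males and 62 in control males. Most of the proteins enter the ribosome in near-equal numbers, yet the highest message exceeded the lowest 12.03-fold in miR-305 males and 17.6-fold in control males. The order of the members was much the same in both libraries, with a Spearman rho of 0.937 and a Pearson r of 0.959 on the log2(FPKM + 1) scale. These correlations run across 70 genes of the same 2 libraries, and genes are not independent replicates. The median shift in rank was 4 places and the largest was 22 places, for mRpL23.

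**Figure D1:**
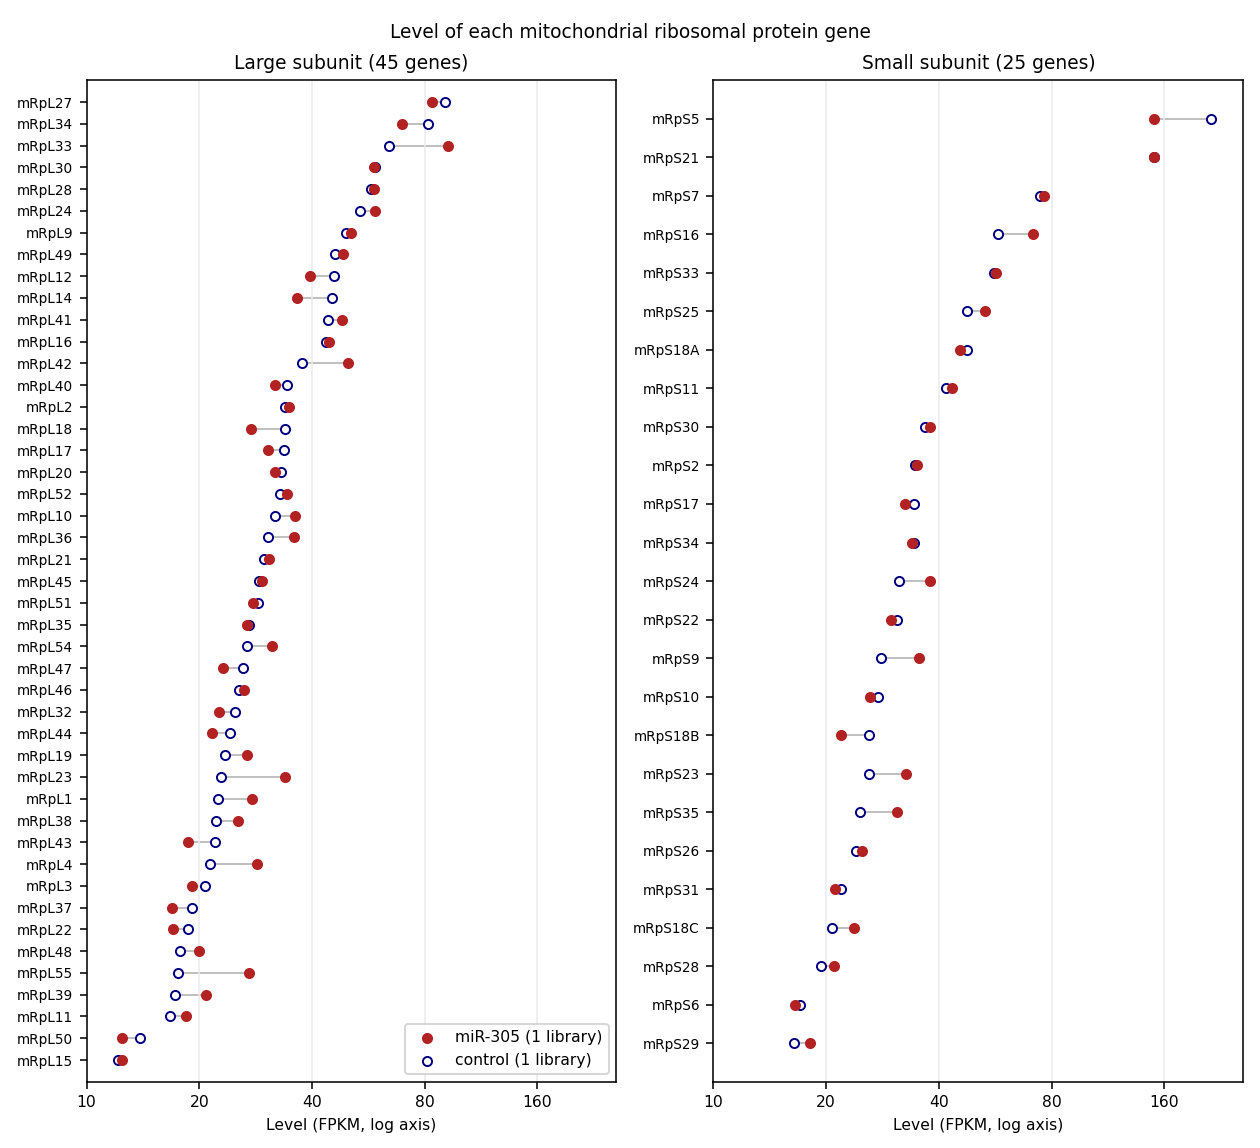
Level of each mitochondrial ribosomal protein gene in FPKM on a log axis, with the large subunit at left and the small subunit at right, sorted by the control level. Filled points are the miR-305 library and open points the control library. For most genes the points nearly coincide, and the widest gaps belong to mRpL55, mRpL23, mRpL33 and mRpS5.

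By the mean of both libraries, the most abundant member was mRpS5, whose bacterial counterpart helps to keep decoding accurate, with 149.97 FPKM in miR-305 males and 214 FPKM in control males. It was followed by mRpS21, with 149.83 FPKM in miR-305 males and 150.5 FPKM in control males. These 2 genes made up 11.1% of the summed FPKM of all members in miR-305 males and 13.7% in control males. By the same mean, the next 3 were mRpL27, mRpL33 and mRpL34. mRpL27, whose bacterial counterpart reaches the peptidyl transferase centre, had 83.9 FPKM in miR-305 males and 90.4 FPKM in control males. mRpL33 and mRpL34, which encode small proteins of bacterial descent, had 92.5 and 69.4 FPKM in miR-305 males against 64.1 and 81.7 FPKM in control males, so their order was inverted between the libraries. At the low end stood mRpL15, with 12.5 FPKM in miR-305 males and 12.1 FPKM in control males. mRpL50 had 12.5 FPKM in miR-305 males and 13.9 FPKM in control males. The other low genes, mRpS6 (16.6 FPKM in miR-305 males against 17.0 FPKM in control males), mRpS29 (18.2 FPKM in miR-305 males against 16.4 FPKM in control males) and mRpL11 (18.5 FPKM in miR-305 males against 16.7 FPKM in control males), lay close to equal. The mammalian counterpart of mRpS29 is the GTP-binding protein DAP3.

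Taken over the whole set, the genes were close to equal between the libraries. Differences are given as a log2 ratio of FPKM + 1, miR-305 over control, so that a positive value is higher in miR-305 males. The members had a median of 0.03, with quartiles of -0.07 and 0.17 and extremes of -0.51 and 0.61. None of the 70 reached 2-fold, with 0 at least 2-fold higher and 0 at least 2-fold lower. Among 11936 features with a mean of at least 1 FPKM, 2.36% passed 2-fold upwards, 1.74% passed it downwards and 95.9% did neither. The median of all features was -0.03, with -0.24 and 0.18 as quartiles. At a smaller threshold, a log2 ratio of 0.322 in either direction, 6 members were higher, 1 was lower and 63 (90%) lay between. In the same 11936 features 14.3% were higher by that much, 18.1% were lower by that much and 67.7% lay in between. The features with a mean of at least 10 FPKM, a level that every member passed, had 68.3% in between. A log2 ratio above 0 was found for 41 members (58.6%) and one below 0 for 29 (41.4%), beside 46.4% and 53.6% of all features. Of the features with a mean of at least 10 FPKM, 52.0% lay above 0 and 48.0% below, and their median was 0.01. The summed FPKM of the members was 2692 in miR-305 males and 2655 in control males, a ratio of 1.01. In RNA of whole flies, a change in the share of a cell type and a change of RNA per cell cannot be told apart.

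**Figure D2:**
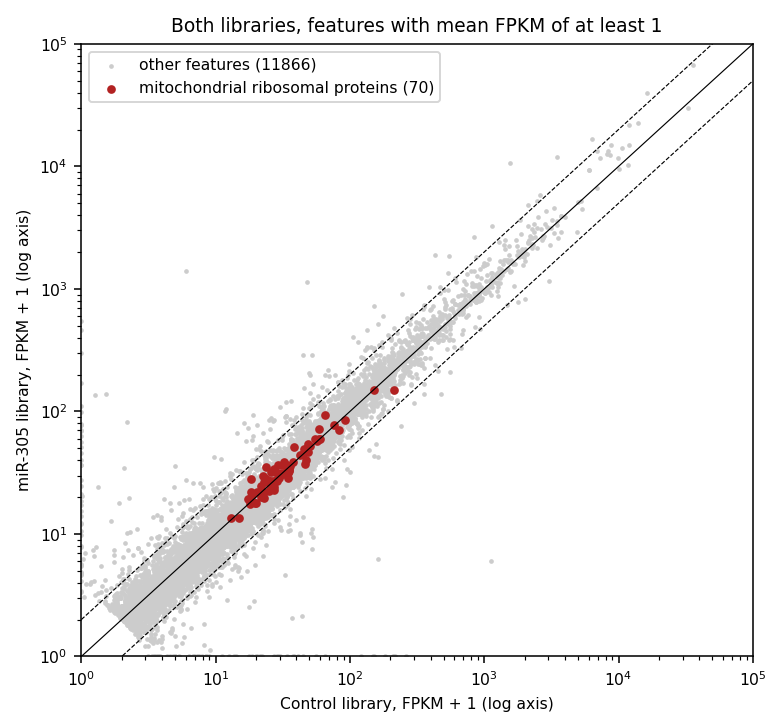
FPKM + 1 of each feature in miR-305 males (vertical, log axis) against the control library (horizontal, log axis), for 11936 features with a mean of at least 1 FPKM. Red points are the 70 mitochondrial ribosomal protein genes, the solid line marks equal values and dashed lines mark 2-fold, and 0 red points lie beyond the dashed lines.

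Marker genes of several tissues differed between the libraries. The 8 accessory gland markers found under 10 listed symbols summed to 112221 FPKM in miR-305 males and 59620 FPKM in control males, with 8 of 8 ratios above 0. Testis markers (11 found of 12) summed to 1940 FPKM in miR-305 males and 2697 FPKM in control males, with 9 of 11 ratios below 0. Muscle markers (10 of 10 found), from a tissue rich in mitochondria, summed to 2011 FPKM in miR-305 males and 2030 FPKM in control males. Of their ratios 4 lay above 0 and 6 below. The widest was that of Act88F, with 29.6 FPKM in miR-305 males and 14.8 FPKM in control males (0.96). Neuron markers (5 of 5 found) summed to 56.7 FPKM in miR-305 males and 65.5 FPKM in control males, with all 5 ratios below 0. Of 5 fat body markers 4 were found with current names, and the 3 that passed the filter of 1 FPKM summed to 1118 FPKM in miR-305 males and 730.5 FPKM in control males. Lsp2, the fat body marker found by the file's own symbols that passed the filter, had 514 FPKM in miR-305 males and 159.5 FPKM in control males, and 1 of the 3 ratios lay below 0. Of 7 female germline and yolk markers, the eggshell genes Vm26Aa and Cp36 were listed at 0 in both libraries. The 7 summed to 22.3 FPKM in miR-305 males and 20.6 FPKM in control males, and most of this sum came from grk. The 2 that passed the filter were grk (16.8 FPKM in miR-305 males and 13.7 FPKM in control males, 0.27) and Yp3 (4.79 FPKM in miR-305 males and 5.69 FPKM in control males, -0.21). The part of these differences in the values of the mitoribosomal genes was not tested.

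In the large subunit the median log2 ratio was 0.03, with quartiles of -0.12 and 0.17, and 26 of 45 genes lay above 0. The genes farthest above 0 were mRpL55, mRpL23 and mRpL33. mRpL55 (chromosome 3R, 19094394 to 19094905 on dm6) encodes a protein added in mitochondria and had 27.2 FPKM in miR-305 males against 17.5 FPKM in control males, 1.55-fold. This was the highest ratio of any member, 0.61, and the gene had rank 46 by level in miR-305 males against rank 64 in control males. mRpL23 (3L, 2372844 to 2373704), whose bacterial counterpart lines the exit of the peptide tunnel, had 33.9 FPKM in miR-305 males against 22.9 FPKM in control males, 1.48-fold. The level of mRpL33 (X, 4321764 to 4322231) was 92.5 FPKM in miR-305 males against 64.1 FPKM in control males, 1.44-fold. mRpL4 (2L, 16328059 to 16329132), whose counterpart reaches into the same tunnel, had 28.6 FPKM in miR-305 males against 21.3 FPKM in control males, 1.34-fold. The mitochondrial addition mRpL42 (2R, 10066650 to 10067242) had 50.0 FPKM in miR-305 males against 37.6 FPKM in control males, 1.33-fold. These 5 genes are the large subunit members past a log2 ratio of 0.322, and 0 of the 45 lay below -0.322.

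Farthest below 0 in the large subunit was mRpL14 (X, 2343997 to 2344649), a protein of the subunit interface in bacteria, with 36.6 FPKM in miR-305 males and 45.2 FPKM in control males and a log2 ratio of -0.30. mRpL18, whose bacterial counterpart binds 5S ribosomal RNA, had 27.6 FPKM in miR-305 males and 33.8 FPKM in control males (-0.28). For mRpL34 the values were 69.4 FPKM in miR-305 males and 81.7 FPKM in control males (-0.23), and for mRpL43 18.7 FPKM in miR-305 males and 21.99 FPKM in control males (-0.23). The stalk protein gene mRpL12, which binds elongation factors in bacteria and has been tied to Cyclin D driven growth in flies, had 39.5 FPKM in miR-305 males and 45.9 FPKM in control males (-0.21). Its partner at the base of the stalk, mRpL10, lay on the other side of 0 as deposited and below 0 with the same sum, with 36.03 FPKM in miR-305 males and 31.9 FPKM in control males (0.17). mRpL47 (23.1 FPKM in miR-305 males and 26.2 FPKM in control males, -0.18) completed the 8 lowest members, which also held the small subunit genes mRpS5 and mRpS18B.

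Further genes of the large subunit were picked for their role. mRpL2, whose counterpart supports the peptidyl transferase centre in bacteria, had 34.8 FPKM in miR-305 males and 34.0 FPKM in control males (0.03). mRpL3, near the same centre, had 19.1 FPKM in miR-305 males and 20.7 FPKM in control males (-0.11), and mRpL16 had 44.3 FPKM in miR-305 males and 43.5 FPKM in control males (0.02). mRpL22, which with mRpL4 narrows the peptide tunnel in bacteria, had 17.0 FPKM in miR-305 males and 18.6 FPKM in control males (-0.12), opposite in sign to mRpL4. mRpL24 at the tunnel exit had 58.8 FPKM in miR-305 males and 53.9 FPKM in control males (0.12), so the genes of tunnel proteins did not share a direction. mRpL44, which has a fold like RNase III in mammals, had 21.6 FPKM in miR-305 males and 24.1 FPKM in control males (-0.15). mRpL45, placed at the membrane side of the mammalian tunnel exit, had 29.5 FPKM in miR-305 males and 28.8 FPKM in control males (0.03). mRpL39, which resembles threonyl-tRNA synthetase in mammals, had 20.9 FPKM in miR-305 males and 17.2 FPKM in control males (0.27).

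Small subunit genes had a median log2 ratio of 0.03, quartiles of -0.05 and 0.15, and 15 of 25 above 0. The single member of either subunit below a log2 ratio of -0.322 was mRpS5 (3L, 24537236 to 24543534), with 149.97 FPKM in miR-305 males against 214 FPKM in control males, which is 1.42-fold lower (log2 ratio -0.51). Its difference in FPKM, -63.6, was the largest of the 70 by size, and 51 members differed by less than 5 FPKM. Without mRpS5 the members summed to 2542 FPKM in miR-305 males and 2441 FPKM in control males. The single small subunit gene above 0.322 was mRpS9 (3R, 7889277 to 7902667), whose bacterial counterpart contacts the transfer RNA in the decoding subunit, with 35.5 FPKM in miR-305 males against 28.0 FPKM in control males (0.33). Just inside that threshold lay mRpS23 (32.7 FPKM in miR-305 males against 26.0 FPKM in control males, 0.318) and mRpS35 (31.0 FPKM in miR-305 males against 24.7 FPKM in control males, 0.315), both added in mitochondria, and mRpS16 (71.4 FPKM in miR-305 males against 57.6 FPKM in control males, 0.30).

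Further small subunit genes were also picked for their role. mRpS7, a protein of the subunit head in bacteria, had 76.2 FPKM in miR-305 males and 74.5 FPKM in control males (0.03). mRpS11 of the platform had 43.2 FPKM in miR-305 males and 41.8 FPKM in control males (0.05). The gene family of S18 proteins has 3 members in the fly, which in mammals occupy different places in the ribosome, and these did not share a direction as deposited, although all 3 lay below 0 with both libraries scaled to the same sum. mRpS18A had 45.5 FPKM in miR-305 males and 47.4 FPKM in control males (-0.06), mRpS18B had 21.96 FPKM in miR-305 males and 26.1 FPKM in control males (-0.24), and mRpS18C had 23.8 FPKM in miR-305 males and 20.7 FPKM in control males (0.19). Their order by level was also different, since mRpS18C was above mRpS18B in miR-305 males and below it in control males.

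Some genes of the mitochondrial ribosome fell outside the naming rule. tko, the gene for S12, had 66.0 FPKM in miR-305 males and 58.5 FPKM in control males (0.17). bonsai, the gene for S15, had 35.0 FPKM in miR-305 males and 29.2 FPKM in control males (0.25). mRpL13, mRpL53 and mRpS14 stand in 3 features that join them with a neighbouring gene, so their own level cannot be separated. The feature of mRpL13 and CG10602 had 86.6 FPKM in miR-305 males and 72.3 FPKM in control males. That of mRpL53 and CG33155 had 83.1 FPKM in miR-305 males and 81.3 FPKM in control males, and that of mRpS14 and CG32533 had 89.1 FPKM in miR-305 males and 64.2 FPKM in control males. All 5 of these ratios lay above 0 as deposited, with the highest, 0.47, for the feature that holds mRpS14 and the lowest, 0.03, for that of mRpL53. Over all features 46.4% lay above 0, and 52.0% of those with a mean of at least 10 FPKM.

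Splits of the 70 genes by origin, place and length showed small differences between medians. Bacterial ribosomes have numbers up to L36 and S21, and the 40 members with such numbers had a median log2 ratio of 0.02, with 21 above 0. The 30 members with higher numbers had a median of 0.06, with 20 above 0. This split by number is approximate, because a few higher numbers, such as mRpL47 and mRpS24, denote proteins with bacterial counterparts. By chromosome arm the median was 0.03 on 2L (11 genes), 0.11 on 2R (11), 0.03 on 3L (17), 0.02 on 3R (21) and 0.03 on X (10). The X median and that of the 60 autosomal genes, 0.03, were nearly the same. Transcript length went with the ratio only weakly, with a Spearman rho of -0.13 across the 70 genes. The 12 genes with transcripts under 600 nt had a median of 0.16, with 9 above 0 and 3 above 0.322 (mRpL55, mRpL33 and mRpL42). The 36 genes of 600 to under 1000 nt had a median of -0.01, and the 22 genes of 1000 nt or more had a median of 0.04. Level and ratio had a Spearman rho of -0.01.

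Mitoribosomal genes were short and lay in dense neighbourhoods. The longest annotated transcript had a median of 778.5 nt over the 70 genes, with a range of 327 to 2078 nt, against a median of 1804 nt over 10284 other protein-coding features. In 40 of 70 members (57.1%) exons overlapped those of a protein-coding gene on the opposite strand, against 26.7% of the other features. All 40 overlaps were tail to tail, at the 3′ ends, with a median of 51.5 bases and a range of 3 to 332 bases. The widest belonged to mRpS24 (332 bases, with TBC1d7), mRpS9 (325 bases, with ArgRS-m, the gene for a mitochondrial arginyl-tRNA synthetase), mRpL17 (258 bases, with CG34263) and mRpS21 (228 bases, with CG8870). No source used here states whether the counting used strand, so reads from these overlaps cannot be assigned with certainty. The 30 members without such an overlap had a median log2 ratio of 0.03, against 0.04 for the 40 with an overlap, and mRpL55, mRpL33 and mRpS5 are among the 30.

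A start site of an opposite-strand gene lay head to head within 1000 bases of the start of 56 members (80%), against 38.8% of the other features. The median gap was 287.5 bases and the shortest, 20 bases, separated mRpL18 from Taz, the gene for the cardiolipin-remodelling enzyme tafazzin. Several partners also act in mitochondria. ATPsyn-d, a subunit of ATP synthase, starts 95 bases from mRpL55 and had 392 FPKM in miR-305 males and 419 FPKM in control males (-0.10), whereas mRpL55 had the highest ratio of all members. HtrA2, a mitochondrial protease gene 126 bases from mRpL11, had 17.8 FPKM in miR-305 males and 17.96 FPKM in control males (-0.02). CG6455, now named Mitofilin after its role in cristae, starts 192 bases from mRpL35 and had 99.5 FPKM in miR-305 males and 103.5 FPKM in control males (-0.06), near the -0.02 of mRpL35. The partner of mRpL33, norpA, is the photoreceptor phospholipase and had 19.6 FPKM in miR-305 males and 32.7 FPKM in control males (-0.71), opposite to mRpL33 at 0.52. Over the 49 pairs in which the partner passed the filter of 1 FPKM, 21 had the same sign and the Pearson r of the ratios was -0.19, with a Spearman rho of -0.10. These pairs come from the same 2 libraries, and r is given as a description.

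**Figure D3:**
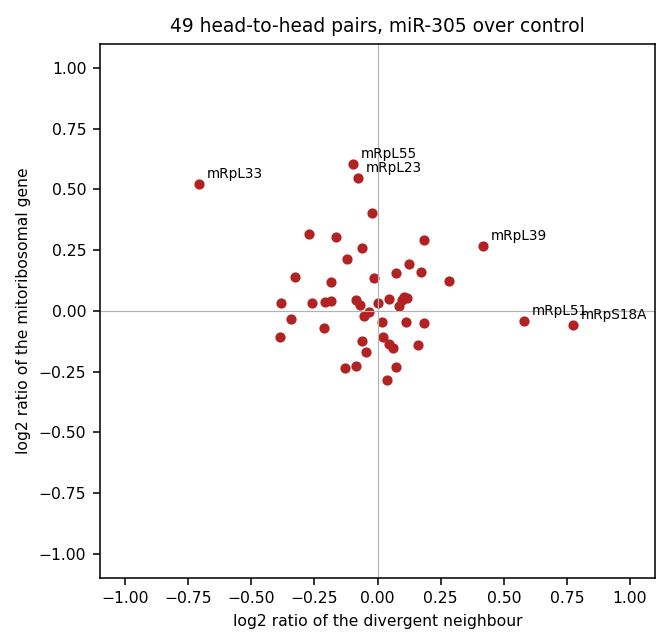
Log2 ratio, miR-305 over control, of each mitoribosomal gene (vertical) against that of its head-to-head neighbour (horizontal), 1 point for each of 49 pairs. The Pearson r is -0.19, and mRpL33 lies at 0.52 where its neighbour norpA lies at -0.71.

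Other genes of mitochondrial gene expression had list medians on both sides of 0 as deposited, and all below 0 with both libraries scaled to the same sum. Ratios and signs in this paragraph are as deposited. Lists were taken by the symbols of the file and widened with current RefSeq names, since the file carries older names. The 11 other genes of mitochondrial translation, tko and bonsai among them, had a median log2 ratio of 0.09, with 7 above 0. The elongation factor genes EfTuM (67.0 FPKM in miR-305 males and 59.8 FPKM in control males, 0.16) and ico, which encodes elongation factor G (8.22 FPKM in miR-305 males and 9.65 FPKM in control males, -0.21), differed in sign. So did the ribosome recycling factor gene CG4447, now mRRF1 (9.69 FPKM in miR-305 males and 8.196 FPKM in control males, 0.22), and CG6412, the gene for elongation factor Ts (52.9 FPKM in miR-305 males and 57.7 FPKM in control males, -0.12). The 16 mitochondrial aminoacyl-tRNA synthetase genes had a median of -0.08, with 6 above 0, and the 3 found by the file's own symbols had a median of 0.18. Their widest ratios belonged to the genes now named ProRS-m (3.99 FPKM in miR-305 males and 5.32 FPKM in control males, -0.34), LeuRS-m (9.66 FPKM in miR-305 males and 7.43 FPKM in control males, 0.34) and AlaRS-m (10.2 FPKM in miR-305 males and 8.42 FPKM in control males, 0.24). Of 9 genes that copy or transcribe mitochondrial DNA 7 lay above 0, with a median of 0.04, while the single-strand binding protein gene mtSSB had 15.3 FPKM in miR-305 males and 23.3 FPKM in control males (-0.58) and the polymerase gene tam had 2.54 FPKM in miR-305 males and 3.76 FPKM in control males (-0.43). The transcription factor gene mtTFB2 had 4.02 FPKM in miR-305 males and 3.001 FPKM in control males (0.33). The 10 matrix chaperone and protease genes had a median of 0.01, with 5 above 0 and CG6512 farthest from equal (67.2 FPKM in miR-305 males and 79.1 FPKM in control males, -0.23), ahead of Lon (27.4 FPKM in miR-305 males and 30.5 FPKM in control males, -0.15) and Roe1 (42.9 FPKM in miR-305 males and 46.0 FPKM in control males, -0.10). None of these genes reached 2-fold. The list of genes of the mitochondrial genome found 0 features, so the messages that these ribosomes translate are not analysed here.

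Nuclear genes for the respiratory chain and ATP synthase were higher in level than the mitoribosomal genes and had a similar spread. Their 63 members had a median level of 398 FPKM in miR-305 males and 401 FPKM in control males, and a median log2 ratio of 0.07, with 41 (65.1%) above 0. The widest ratio belonged to CG40002, the gene of a complex I subunit, with 71.3 FPKM in miR-305 males and 38.6 FPKM in control males (0.87). SdhC of complex II had 557 FPKM in miR-305 males and 401 FPKM in control males (0.47), and ox of complex III, the overlapping neighbour of mRpL18, had 1561 FPKM in miR-305 males and 1941 FPKM in control males (-0.31). The 22 of these genes found by the file's own symbols had a median of 0.10. By contrast 20 paralogs of such subunits, which carry a name ending in L and many of which are known from the testis, had a median of -0.23, with 5 above 0, and the lowest were those now named ATPsynCF6L (23.1 FPKM in miR-305 males and 36.5 FPKM in control males, -0.64) and ND-24L (17.2 FPKM in miR-305 males and 27.0 FPKM in control males, -0.63). The one now named ATPsynepsilonL lay on the other side of 0, with 18.5 FPKM in miR-305 males and 12.4 FPKM in control males (0.54). The cytosolic ribosomal proteins, 71 genes, had a median level of 1457 FPKM in miR-305 males and 1481 FPKM in control males. This is 46.3-fold above the median of the mitoribosomal genes in miR-305 males and 49.1-fold in control males. Their median log2 ratio was -0.02, with 29 (40.8%) above 0, against 58.6% of the mitoribosomal genes. The interquartile width of the log2 ratio was 0.24 for the mitochondrial and 0.17 for the cytosolic ribosomal proteins. RpL10Aa (18.8 FPKM in miR-305 males and 28.8 FPKM in control males, -0.59) and RpS28a (12.4 FPKM in miR-305 males and 17.7 FPKM in control males, -0.48), copies at low level, were the lowest of the cytosolic set, followed by RpLP1 (2619 FPKM in miR-305 males and 3554 FPKM in control males, -0.44). Differences between the lists were not tested, because each rests on the same 2 libraries.

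**Figure D4:**
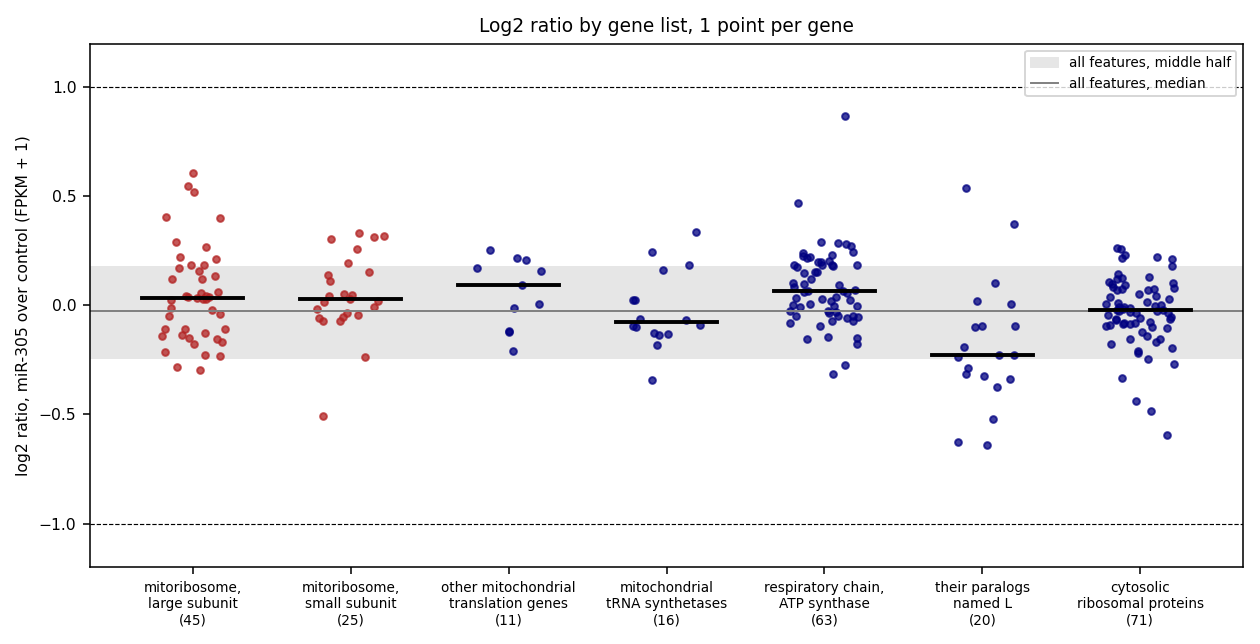
Log2 ratio, miR-305 over control on the FPKM + 1 scale, of each gene in 7 lists, with a black bar at the list median. The grey band spans the quartiles of all features (-0.24 to 0.18), dashed lines mark 2-fold, and the medians of both mitoribosomal subunits stand at 0.03.

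Which side of 0 the members lay on depended on how the libraries were scaled. FPKM values summed to 1176985 in miR-305 males and 967511 in control males, a ratio of 1.22. The members held 0.229% of this sum in miR-305 males and 0.274% in control males. With both libraries scaled to the same sum, the median of all features moved to -0.28 and that of the members to -0.24. Then 10 of 70 members lay above 0 beside 18.4% of all features. Relative to the median of all features, the members stood 0.06 higher as deposited and 0.03 higher with the same sum. As deposited, this difference was 0.03 with no filter and 0.02 where a mean of at least 10 FPKM was required. With the same sum mRpL55 was the member farthest above 0, at 0.34, and mRpS5 the farthest below, at -0.79, and still 0 members reached 2-fold.

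**Figure D5:**
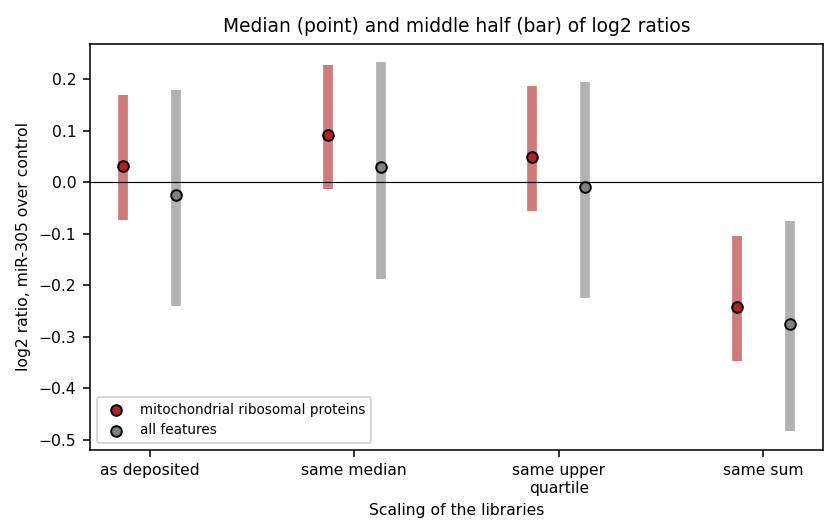
Median (point) and quartiles (ends of the bar) of the log2 ratio, miR-305 over control, for the 70 mitoribosomal genes and all features under 4 scalings of the libraries. Both sets shift together, to -0.24 and -0.28 with the same sum.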

How the data were processed

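RNA from 1 library of each group was read in 51-bp single-end reads from a directional kit, per the labels' protocols. The authors deposited FPKM values per feature, made with TopHat2 2.0.13 and Cufflinks 2.2.1 on dm6 after FastQC 0.11.5, per the submitters' processing notes. No counts are given, so depth is unknown and no counting interval can be had. An exact 0 may be a failed estimate. FPKM depends on how the size of each library is set, which was not checked here. If the total is used, a few abundant genes can shift all others.

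Log2 ratios were taken on FPKM + 1, where low genes appear closer to equal than they are, in features whose mean reached 1 FPKM. Folds are plain FPKM ratios. Features were matched to Ensembl 115 (same assembly) by symbol or RefSeq synonym within the deposited locus (94.1% matched). Coordinates are 1-based. No test was possible with 1 library a group. The members and lists were chosen with earlier results of these data known. Named genes were the 8 highest and 8 lowest ratios, the 5 most and 5 least abundant, genes picked for their role and up to 3 of each comparison list. mRpL22, mRpL24, mRpL39, mRpL45, mRpS16, mRpS24, mRpL17, mRpL35, EfTuM, CG6412 and the partners of head-to-head pairs were added after their values were seen, as was the widening of lists by current names. The alternatives tried were adding 0.1 or 5 in place of 1, using no filter, requiring a mean of 10 FPKM, and scaling to the same median, upper quartile or sum. Promoter motifs and miR-305 seed matches were not analysed here. Calculations used Python 3.11.15, numpy 2.4.6, pandas 2.3.3, scipy 1.17.1 and matplotlib 3.10.9 and were tested on simulated data.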

Additional observations from a re-analysis of the deposited data

How the results depend on the processing

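No paired analysis was possible because each group has 1 library. Pseudocounts of 0.1 and 5, no filter and a mean of at least 10 FPKM moved no member by 0.1 or more and changed the sign of 0 of 70 (range -0.51 to 0.63 with 0.1 and -0.50 to 0.52 with 5). Above a log2 ratio of 0.322 lay 8 members with 0.1 added and 5 with 5 added, against 6 as reported, and 1 lay below -0.322 each time. With 0.1 added, mRpS23 (0.327) and mRpS35 (0.325) also passed, and with 5 added mRpS9 (0.295) did not. Scaling to the same upper quartile kept the sign of 68 of 70 and the same median that of 60. The same median gave 51 members above 0, 19 below and 11 above a log2 ratio of 0.322, beside 54.1% of all features above 0. The share of all features past 0.322 was not computed for other pseudocounts or scalings, so these counts have no background beside them. Under the same sum 39 kept their sign, and the median was -0.24 over all members, -0.24 for the large and -0.25 for the small subunit. Then 10 lay above 0 and 60 below, with 1 above 0.322 and 21 below -0.322, beside 18.4% of all features above 0. The comparison lists by deposited symbols then had medians of -0.18 (other mitochondrial translation), -0.062 (tRNA synthetases), -0.21 (mitochondrial DNA expression), -0.19 (respiratory chain), -0.31 (cytosolic ribosomal proteins) and -0.29 (chaperones), and with current names the synthetases had -0.30, the respiratory chain -0.22, its paralogs -0.50 and the chaperones -0.27, since by construction this scaling lowers all ratios. Limiting the set to the 30 members without antisense overlap, chosen after seeing the data, left 16 above 0, 14 below and 2 above 0.322, and the small subunit median changed sign, to -0.036 against 0.031 as reported, while that of the large subunit was 0.038. No member reached 2-fold under these settings.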
